A study of Mus musculus with 20 samples.

Results

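The genes described here are 40 cell cycle and mitosis genes, chosen by name as members of that module, out of 42818 gene symbols with a value in abdominal aorta of C57BL/6 mice. All 40 had values in every library. Ribosomal RNA was removed from total RNA before sequencing, and the 20 libraries fall into 4 groups of 5, namely Rab22a knockout mice given angiotensin II (AngII), Rab22a knockout mice given saline, wild type mice given AngII and wild type mice given saline. AngII, a peptide hormone that constricts arteries, was given at 500 ng/kg/min, and both treatments lasted 14 days. Age, the type of knockout allele and the sex of the mice were not given in the sources used here, and the whole vessel was sequenced. Each library is labelled as its own sample, and p-values measure the spread between these samples. Going by its title, the study asked whether loss of Rab22a, a small GTPase of endosomes, changes the vascular response to AngII.

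A cell that divides passes from a growth phase into DNA synthesis and then into mitosis. E-type cyclins with their kinase partner start DNA synthesis, the Mcm helicase unwinds the DNA, and the clamp Pcna holds the polymerase on it. Cyclin A and cyclin B with Cdk1 drive mitosis, kinetochores tie chromosomes to the spindle, a checkpoint delays the separation of chromosomes until all are attached, and the anaphase promoting complex then marks the cyclins for destruction. A contractile ring of actin and myosin, scaffolded by anillin (Anln), finally pinches the cell apart. Most smooth muscle cells of a healthy adult artery do not divide, whereas B cells divide quickly in the germinal centres of lymphoid tissue.

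Values were FPKM, fragments scaled to transcript length and library size, summed per gene over its annotated transcripts, and stand for about 68750000 to 77390000 reads per library, as implied by the size of 1 read's step. The main protein-coding Rab22a transcript, Rab22a-201, lay between 0 and 0.00563 FPKM in the 10 knockout libraries and between 1.87 and 8.62 FPKM in the 10 wild type libraries, so genotype and label matched. A second Rab22a transcript, classed as subject to nonsense-mediated decay, lay between 7.43 and 11.1 FPKM in the knockout libraries and between 0.162 and 3.61 FPKM in the wild type libraries. Smooth muscle markers were abundant in every library, with Myh11 between 126 and 401 FPKM. Lymphocyte genes varied far more. The mean level of 21 B and plasma cell genes, in log2(FPKM + 1), lay between 0.69 and 1.78 in 5 libraries, which were knockout AngII replicates 1 and 2 and knockout saline replicates 2, 4 and 5. It lay between 3.26 and 5.49 in the other 15 libraries, and the mean level of 26 T and NK cell genes lay between 0.57 and 1.44 in the same 5 libraries and between 1.98 and 5.04 in the other 15.

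Across the 20 libraries the cell cycle genes other than Anln went up and down together, and the high values belonged to single libraries of several groups. The library of knockout saline replicate 1 held the highest value for 37 of the 40 members. Knockout saline replicate 3, wild type AngII replicate 5 and wild type saline replicate 4 were also high. Of the 39 members without Anln, 36 had their lowest value in 1 of the 5 libraries poor in lymphocyte genes, and 17 lay lower in all 5 of these libraries than in each of the other 15. Over the 20 libraries, Pearson's r between pairs of the 37 tested members other than Anln had a median of 0.94 and a minimum of 0.63. These correlations share libraries and depth and are a description. In bulk tissue, fewer dividing cells and less RNA per dividing cell cannot be told apart.

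**Figure D1:**
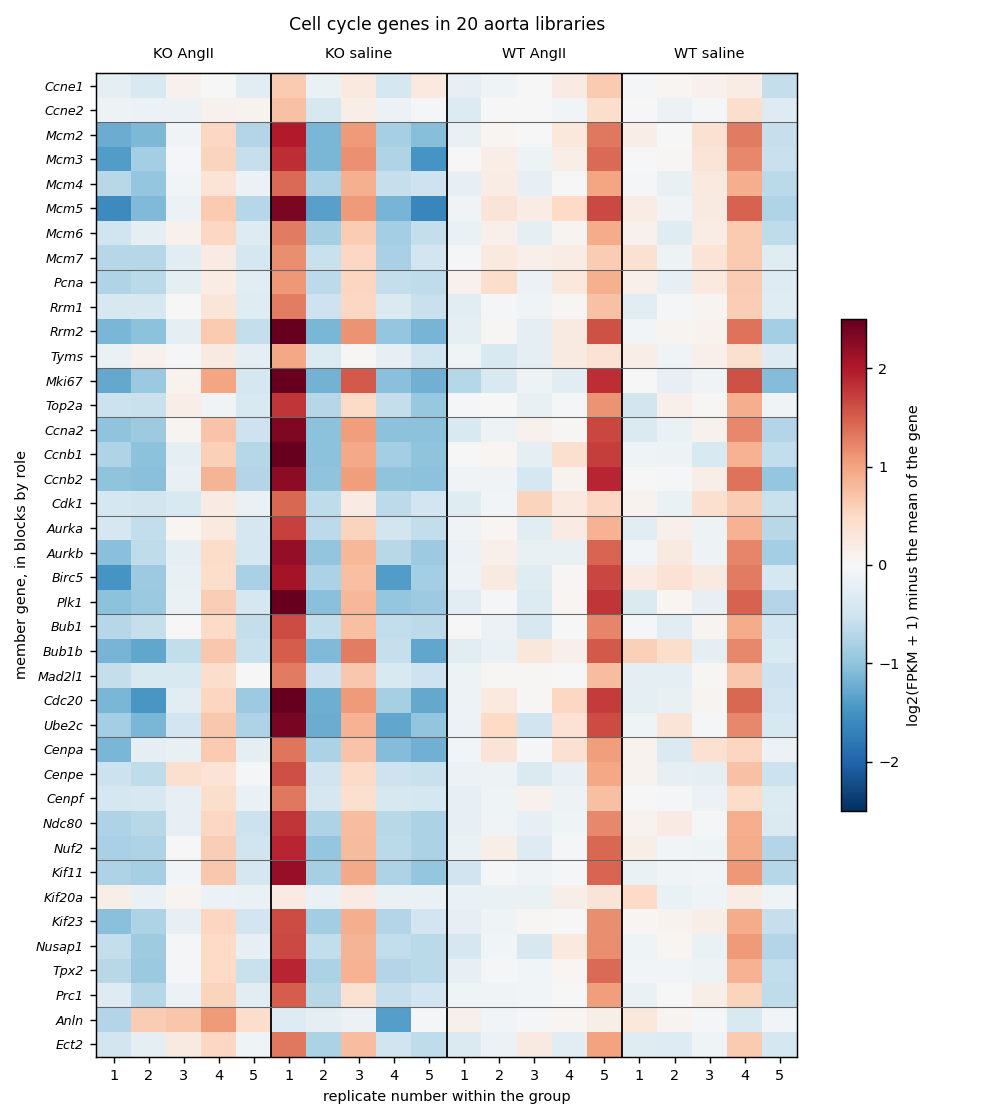
Each cell gives log2(FPKM + 1) of 1 member (rows, in blocks by role) in 1 library (columns, by group and replicate number) minus the mean of that gene over the 20 libraries. Knockout saline replicate 1 is red in nearly every row, the 5 libraries poor in lymphocyte genes are mostly blue, and Anln follows neither.

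The promoters of the members held certain motifs more often than all promoters did. The table of promoters from RefSeq (GRCm38.p6, the assembly of mm10) held 34 of the 40 members, with 37 promoters. Each promoter searched for the shares below ran from 250 bases before the start of transcription to 50 bases after it, on both strands. The cell cycle homology region, searched as TTTGAA or TTCGAA, and the CCAAT box are elements through which mitotic genes are held silent in resting cells and switched on before division. The E2F element, searched as TTCCCGC or TTGGCGC, serves entry into DNA synthesis. A cell cycle homology region was found in 59.5% of the members' promoters, against 19.2% of all 32851 promoters in the table. A CCAAT box was found in 78.4% of them against 37.4%, at least 2 CCAAT boxes in 48.6% against 11.7%, and an E2F element in 29.7% against 6.81%. Of Cdc20, Ccnb2, Mcm5 and Anln, of which the stretch from 150 bases before the start to 30 bases after it is printed here, the first 3 belong to genes that moved together and the last to the gene that did not. Capitals mark these motifs on either strand, and each sequence runs 5′ to 3′ along the strand of its gene. They lie at chr4:118437314-118437493 on the minus strand (Cdc20), chr9:70421525-70421704 on the minus strand (Ccnb2), chr8:75109359-75109538 on the plus strand (Mcm5) and chr9:22389177-22389356 on the minus strand (Anln).
Cdc20: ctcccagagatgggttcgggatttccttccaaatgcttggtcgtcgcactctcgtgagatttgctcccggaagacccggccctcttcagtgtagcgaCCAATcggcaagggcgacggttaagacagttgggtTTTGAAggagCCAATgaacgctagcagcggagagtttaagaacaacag
Ccnb2: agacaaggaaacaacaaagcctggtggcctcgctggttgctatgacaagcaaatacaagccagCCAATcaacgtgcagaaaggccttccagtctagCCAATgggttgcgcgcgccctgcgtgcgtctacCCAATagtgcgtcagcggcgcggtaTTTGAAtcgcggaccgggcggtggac
Mcm5: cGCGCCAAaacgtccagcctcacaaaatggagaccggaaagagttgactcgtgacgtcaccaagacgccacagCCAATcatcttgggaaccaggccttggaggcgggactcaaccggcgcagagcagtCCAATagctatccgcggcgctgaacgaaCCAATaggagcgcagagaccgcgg
Anln: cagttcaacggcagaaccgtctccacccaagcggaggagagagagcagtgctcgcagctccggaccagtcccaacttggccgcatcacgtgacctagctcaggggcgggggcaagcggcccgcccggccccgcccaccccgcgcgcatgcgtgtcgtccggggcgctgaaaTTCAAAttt
The mitotic genes Cdc20 and Ccnb2 held 2 and 3 CCAAT boxes and 1 cell cycle homology region each. Mcm5, a helicase gene, held 3 CCAAT boxes and 1 E2F element, and no cell cycle homology region in this stretch. Anln held 1 cell cycle homology region and neither of the other motifs. No E2F match overlapped a CCAAT box in these 4 windows, although GCGCCAA, the E2F motif on the other strand, can do so when a T follows. In the longer stretch searched for the shares, Ndc80 had the same motifs as Anln, yet it went up and down with the other members. Birc5, Ccne1, Mad2l1, Nuf2, Nusap1 and Tyms had none of the motifs there and moved with the other members too. A match in such a stretch is a description of letters, and binding was not measured.

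Among members above 0 FPKM in every library, the E-type cyclins had the narrowest spans, with Pcna close to them at 3.67-fold. Ccne1, cyclin E1, had 1.94, 1.69, 2.73, 2.47 and 1.89 FPKM in knockout AngII aortas and 4.48, 2.10, 3.14, 1.58 and 3.12 FPKM in knockout saline aortas. It had 2.04, 2.22, 2.45, 3.02 and 4.45 FPKM in wild type AngII aortas and 2.39, 2.61, 2.74, 2.98 and 1.29 FPKM in wild type saline aortas. All 4 groups overlapped, and the highest library held 3.46 times the value of the lowest. Ccne2, its close relative, spanned 3.48-fold around a mean of 1.55 FPKM.

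The 6 subunits of the Mcm helicase spanned between 4.38-fold (Mcm7) and 29.2-fold (Mcm5) over the 20 libraries. Mcm7, whose mean of 13.1 FPKM was the highest of the 6, had 7.05, 7.01, 9.91, 14.2 and 8.72 FPKM in knockout AngII aortas and 28.5, 7.91, 17.9, 6.51 and 8.43 FPKM in knockout saline aortas. It had 11.9, 14.5, 13.3, 13.9 and 19.4 FPKM in wild type AngII aortas and 16.2, 11.1, 15.8, 19.6 and 9.73 FPKM in wild type saline aortas. Under AngII, 4 of the 5 knockout libraries lay below every wild type library, and replicate 4 lay among them. Mcm5 averaged 4.01 ± 3.18 FPKM in knockout AngII, 9.85 ± 13.4 FPKM in knockout saline, 9.19 ± 5.80 FPKM in wild type AngII and 7.56 ± 5.48 FPKM in wild type saline aortas (SD, n = 5 each). In knockout saline aortas the SD of Mcm5 exceeded its mean, because replicate 1 held 32.1 FPKM and replicate 5 held 1.10 FPKM.

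Pcna, the replication clamp, was the most abundant member at a mean of 48.2 FPKM, and it serves DNA repair as well as replication. Its levels were 26.2, 27.8, 38.1, 51.0 and 37.4 FPKM in knockout AngII aortas and 96.1, 28.1, 65.6, 29.3 and 28.4 FPKM in knockout saline aortas. They were 48.5, 61.1, 40.6, 54.1 and 83.7 FPKM in wild type AngII aortas and 49.3, 39.1, 53.2, 70.6 and 35.8 FPKM in wild type saline aortas. As with Mcm7, 4 of the 5 knockout AngII libraries lay below every wild type AngII library. Among the genes for nucleotide supply, Rrm2, the subunit of ribonucleotide reductase made in dividing cells, spanned 25.6-fold. Its partner Rrm1 spanned 4.04-fold and Tyms, thymidylate synthase, 4.37-fold.

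Mki67, the nuclear protein Ki-67 by which dividing cells are stained (chromosome 7, 135689784 to 135716361, minus strand), had 0.290, 0.659, 2.34, 5.25 and 1.30 FPKM in knockout AngII aortas and 21.9, 0.386, 8.08, 0.513 and 0.365 FPKM in knockout saline aortas. It had 0.909, 1.42, 1.87, 1.61 and 10.2 FPKM in wild type AngII aortas and 2.17, 1.72, 1.97, 8.45 and 0.472 FPKM in wild type saline aortas. The same genotype and treatment thus held both the highest Mki67 value and 3 of the 5 lowest, and the lowest library still carried 219 Mki67 reads. Top2a, the topoisomerase that untangles chromosomes, had 1.18, 1.16, 2.56, 1.99 and 1.45 FPKM in knockout AngII aortas and 9.91, 0.924, 3.50, 1.09 and 0.639 FPKM in knockout saline aortas. It had 2.10, 2.15, 1.79, 2.10 and 5.88 FPKM in wild type AngII aortas and 1.32, 2.45, 2.22, 4.97 and 2.0 FPKM in wild type saline aortas. In each group the library with the most Mki67 was the highest or second highest for Top2a.

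The cyclins of mitosis varied widely too, though none spanned as much as Mki67, at 75.6-fold. Ccnb1, cyclin B1, had 0.430, 0.191, 1.06, 2.65 and 0.481 FPKM in knockout AngII aortas and 12.5, 0.178, 3.67, 0.332 and 0.203 FPKM in knockout saline aortas. It had 1.38, 1.51, 1.07, 2.18 and 6.96 FPKM in wild type AngII aortas and 1.25, 1.20, 0.843, 3.39 and 0.572 FPKM in wild type saline aortas, a span of 70.0-fold over the 20 libraries. All groups overlapped for Ccnb1. Ccna2, cyclin A2, spanned 25.3-fold, from 0.607 FPKM in knockout saline replicate 4 to 15.4 FPKM in knockout saline replicate 1, and averaged 1.90 ± 1.56 FPKM in knockout AngII, 4.60 ± 6.43 FPKM in knockout saline, 3.55 ± 3.30 FPKM in wild type AngII and 2.70 ± 2.23 FPKM in wild type saline aortas (SD, n = 5 each). Ccnb2, cyclin B2, spanned 33.2-fold, and Cdk1, the kinase these cyclins activate, 17.0-fold. The pseudogene Ccnb2-ps was listed at a mean of 1.95 FPKM, against 2.71 FPKM for Ccnb2, so reads may have been split between the 2 and the level of Ccnb2 is uncertain. For Ccnb1, Pcna and Tyms the pseudogenes lay at means of 0.265, 0.839 and 0.0139 FPKM.

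Of the mitotic kinases and the passenger complex, Birc5 (survivin), which guides Aurora kinase B to the centromere, was the highest at a mean of 2.95 FPKM. Birc5 lay at 0.132, 0.678, 1.79, 3.30 and 0.805 FPKM in knockout AngII aortas and at 12.3, 0.827, 4.35, 0.199 and 0.745 FPKM in knockout saline aortas. It lay at 1.88, 2.71, 1.56, 2.20 and 9.05 FPKM in wild type AngII aortas and at 2.63, 3.04, 2.67, 6.76 and 1.33 FPKM in wild type saline aortas. The 5 libraries poor in lymphocyte genes held between 0.132 and 0.827 FPKM, and knockout AngII replicate 5, at 0.805 FPKM, was the only other library in that range. Plk1, polo-like kinase 1, spanned 81.1-fold, Aurkb 44.4-fold and Aurka, which acts at the spindle poles, 10.4-fold.

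Checkpoint and anaphase genes followed the same libraries. Ube2c, the ubiquitin-conjugating enzyme of the anaphase promoting complex, had 1.80, 1.28, 2.61, 7.0 and 1.97 FPKM in knockout AngII aortas and 25.2, 1.14, 8.26, 1.06 and 1.53 FPKM in knockout saline aortas. It had 3.53, 6.13, 2.58, 5.46 and 14.6 FPKM in wild type AngII aortas and 3.70, 5.26, 3.97, 10.6 and 2.82 FPKM in wild type saline aortas. The 5 libraries poor in lymphocyte genes were the lowest of all 20 for Ube2c. Exons of 10 members, Ube2c among them, overlap those of another gene, and since the strand setting of the counting was not given in the sources used here, such reads cannot be told apart. Cdc20, the activator of that complex, spanned 43.5-fold, and the checkpoint genes Bub1b and Mad2l1 spanned 35.4-fold and 4.99-fold. Bub1, a checkpoint kinase, spanned 266-fold, but its lowest value of 0.0155 FPKM rested on 4 reads.

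At the centromere, Cenpa, the histone that marks it, had 1.76, 4.18, 4.40, 8.67 and 4.28 FPKM in knockout AngII aortas and 14.5, 2.54, 9.06, 1.90 and 1.67 FPKM in knockout saline aortas. It had 4.88, 6.70, 4.95, 6.93 and 11.7 FPKM in wild type AngII aortas and 5.52, 3.80, 6.96, 7.93 and 4.53 FPKM in wild type saline aortas. Its groups overlapped, with a span of 8.70-fold. The kinetochore genes Ndc80 and Nuf2, whose products form 1 complex that grips the spindle, spanned 57.1-fold and 93.1-fold, and the kinetochore motor Cenpe spanned 31.3-fold. Cenpf, a large kinetochore protein, averaged 0.549 FPKM and reached 1 FPKM in 3 libraries, too few for the tests below.

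Among spindle motors and bundlers, Prc1, which crosslinks the microtubules of the midzone, had 1.28, 0.751, 1.59, 3.18 and 1.37 FPKM in knockout AngII aortas and 7.19, 0.763, 2.71, 0.927 and 1.04 FPKM in knockout saline aortas. It had 1.67, 1.69, 1.74, 1.89 and 4.92 FPKM in wild type AngII aortas and 1.56, 1.88, 2.16, 3.21 and 0.848 FPKM in wild type saline aortas. Groups overlapped here too. Kif11, the motor that pushes spindle poles apart, spanned 64.2-fold, Kif23, a motor of the midzone, 24.4-fold, and the microtubule binder Tpx2 23.2-fold. Nusap1, another, averaged 1.83 FPKM. Kif20a, another midzone motor, was listed at 0 in 9 libraries, did not reach 1 FPKM in any and was not tested. Ect2, which switches on the contractile ring, spanned 20.4-fold and moved with the mitotic genes, unlike Anln.

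**Figure D2:**
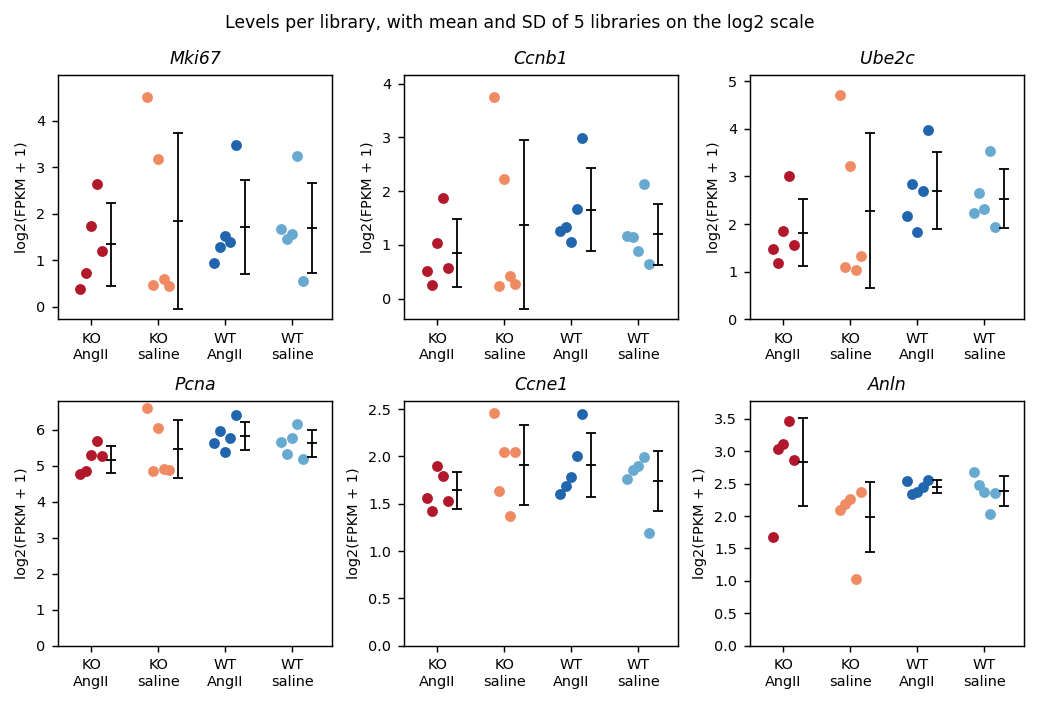
Points are log2(FPKM + 1) of 6 members in the 5 libraries of each group, and the black bar beside them is the mean with its SD on that scale. For Mki67, Ccnb1 and Ube2c 1 or 2 libraries stand above the rest within groups, and for Anln 4 of the 5 knockout AngII libraries stand above all others.

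AngII was compared with saline in knockout aortas to see what the hormone changed without Rab22a. No member passed limma's test across 14998 genes (adjusted p under 0.05), and over all genes 0.0% passed, with 595 genes at an unadjusted p under 0.05 and 0 calls by limma-voom. Anln was the 1 member with an unadjusted p under 0.05. Of the 38 tested members 1 was higher under AngII and 37 were lower, with a median log2 difference of -0.38, against 61.3% of all genes lower and a median of -0.06. Mki67 had a log2 difference of -0.51 ± 0.75 (SE, limma adjusted p = 0.99) and Cdc20, with the most negative difference of the members, -0.70 ± 0.64 (limma adjusted p = 0.99). The direction turned without 1 library. Without knockout saline replicate 1 the median was 0.07 and 28 of the 38 members were higher, and without knockout saline replicates 1 and 3 it was 0.45 with 37 higher. The level of the B and plasma cell list averaged 2.69 in knockout AngII and 2.87 in knockout saline aortas, a difference of -0.18 (exact permutation test, two-sided, p = 0.897).

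In wild type aortas AngII was set against saline in the same way. No member passed (limma), against 0.0% of all genes, where 458 genes and 0 members had an unadjusted p under 0.05 and limma-voom gave 0 calls. Under AngII 34 of the 38 tested members were higher, with a median log2 difference of 0.14, against 53.6% of all genes and a median of 0.02. Ccnb1, with the smallest p of the members, had a log2 difference of 0.46 ± 0.58 (limma adjusted p = 1) and Mki67 one of 0.02 ± 0.75. Ccne1 differed by 0.16 ± 0.21. The direction turned without either of 2 libraries. Without wild type AngII replicate 5 the median was -0.12 with 10 of 38 members higher, and without wild type saline replicate 5 it was -0.02 with 16 higher.

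Knockout was set against wild type under AngII to see what loss of Rab22a changed in treated aortas. Of all genes 1.83% passed limma's test, 275 in number, and 0 of the 38 tested members did. Of the members 37 were lower in knockout than in wild type aortas, with a median log2 difference of -0.48, against 62.0% of all genes lower and a median of -0.10. The median was -0.90 with limma-voom and -0.84 with a pseudocount of 0.1, each with 36 of 38 lower. The smallest p belonged to Pcna, at 36.1 ± 9.92 FPKM in knockout AngII and 57.6 ± 16.4 FPKM in wild type AngII aortas (SD, n = 5), a log2 difference of -0.66 ± 0.31 (SE, limma adjusted p = 0.293). Mcm7 followed, at 9.37 ± 2.95 FPKM in knockout AngII and 14.6 ± 2.85 FPKM in wild type AngII aortas, with -0.61 ± 0.31 (limma adjusted p = 0.32). Cdc20 had the most negative difference, -1.13 ± 0.64 (limma adjusted p = 0.378). B and plasma cell genes averaged 2.69 in knockout AngII and 4.36 in wild type AngII aortas, and T and NK cell genes 2.26 and 3.76 (exact permutation test, two-sided, p = 0.103 for both, where 0.00794 is the smallest possible). With these 2 list levels as covariates, the members' median turned to 0.20, 33 of 38 were higher in knockout aortas, and none passed (smallest limma adjusted p = 0.254). The libraries poor in lymphocyte genes were all knockout. The B and plasma cell level lay between 0.69 and 4.76 in knockout AngII and between 3.89 and 5.17 in wild type AngII aortas. The covariate fit thus reaches below the wild type levels and cannot tell genotype and lymphocyte content apart. Without wild type AngII replicate 5 the median was -0.23, with 32 of 38 lower. The median over all genes shifted by 0.13 after quantile normalization, where 66.8% of the called genes were higher in knockout aortas, against 21.5% as deposited and 53.3% after scaling in the manner of TMM. Relative to the median of all genes the members' median was -0.38 both as deposited and after quantile normalization.

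Under saline the members showed no one direction between the genotypes that held over the settings tried. Of all genes 0.0133% passed limma's test, which were 2 genes, and 0 of the 38 members did. Of the members 19 were higher and 19 lower in knockout than in wild type aortas, with a median log2 difference of -0.01, against 57.1% of all genes lower. With limma-voom the median was -0.28 and with a pseudocount of 0.1 it was -0.245, each with 30 of 38 lower. Mki67 averaged 6.25 ± 9.35 FPKM in knockout saline and 2.96 ± 3.14 FPKM in wild type saline aortas (SD, n = 5), a log2 difference of 0.15 ± 0.75 (SE, limma adjusted p = 0.978). The knockout mean was made by 2 libraries, and without knockout saline replicate 1 the members' median was -0.45 with 37 of 38 lower. Without replicates 1 and 3 it was -0.84 with all 38 lower (smallest limma adjusted p = 0.0731). With the lymphocyte levels as covariates it was 0.52 with 37 higher (smallest limma adjusted p = 0.199). The B and plasma cell level lay between 0.78 and 5.49 in knockout saline and between 3.26 and 5.13 in wild type saline aortas. Here too the covariate fit reaches below the wild type levels and cannot tell genotype and lymphocyte content apart.

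The difference between the genotypes in their response to AngII was tested as an interaction, the response in knockout minus the response in wild type. No member passed (limma), and over all genes 0.0% passed, with 502 genes and 0 members at an unadjusted p under 0.05 and 0 calls by limma-voom. The members' median was -0.51 with 36 of 38 below 0, against 59.0% of all genes. Without knockout saline replicate 1 it was -0.06, and without replicates 1 and 3 it was 0.38 with 37 above 0. The 5 comparisons share libraries with each other, so these values are not independent.

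**Figure D3:**
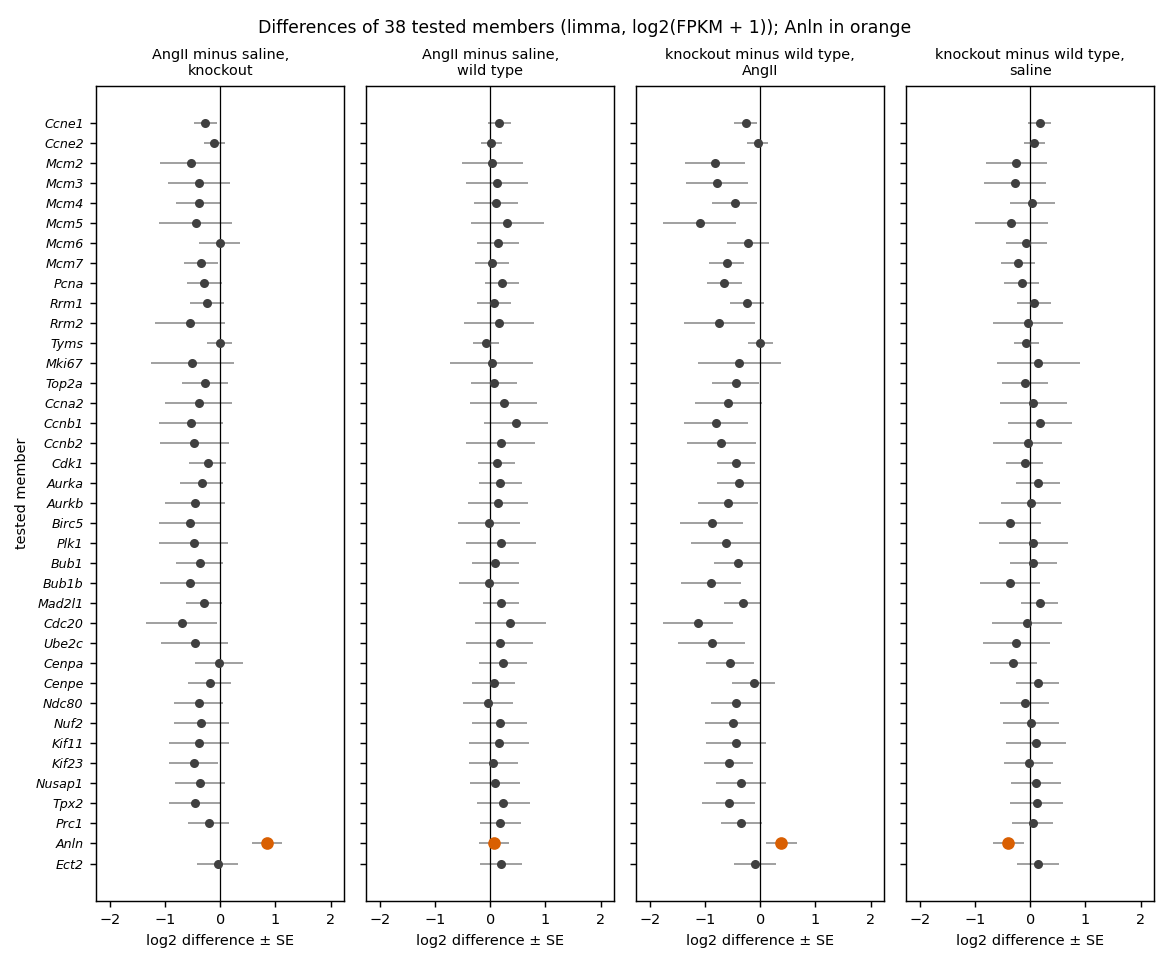
Points are the log2 differences of the 38 tested members in 4 comparisons, with SE from limma on log2(FPKM + 1), and Anln is orange. Most members lie below 0 for AngII in knockout aortas and for knockout against wild type under AngII, while Anln lies above 0 in both.

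How the members followed lymphocyte genes was examined with a slope on the level of each lymphocyte list, with the group means in the same model. For the B and plasma cell level, 37 of the 38 tested members had a positive slope that passed limma's test, against 29.3% of all genes outside the list, and the members' median was 0.42 on the log2 scale per log2 unit. For the T and NK cell level 37 passed as well, against 31.2% of all genes outside that list, with a median of 0.45. Mki67 had the highest slopes, 0.73 ± 0.09 on the B and plasma cell level (SE, limma adjusted p = 9e-06) and 0.77 ± 0.11 on the T and NK cell level (limma adjusted p = 2.68e-05). The smallest p on the B and plasma cell level belonged to Mcm3, with 0.56 ± 0.06 (limma adjusted p = 1.56e-06). E-type cyclins and Tyms had the shallowest slopes of those that passed, with Ccne1 at 0.13 ± 0.04 and Tyms at 0.15 ± 0.05 on the B and plasma cell level (limma adjusted p = 0.0245 and 0.0177). Anln did not pass, at 0.11 ± 0.07 and 0.12 ± 0.07 (limma adjusted p = 0.209 and 0.201).

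**Figure D4:**
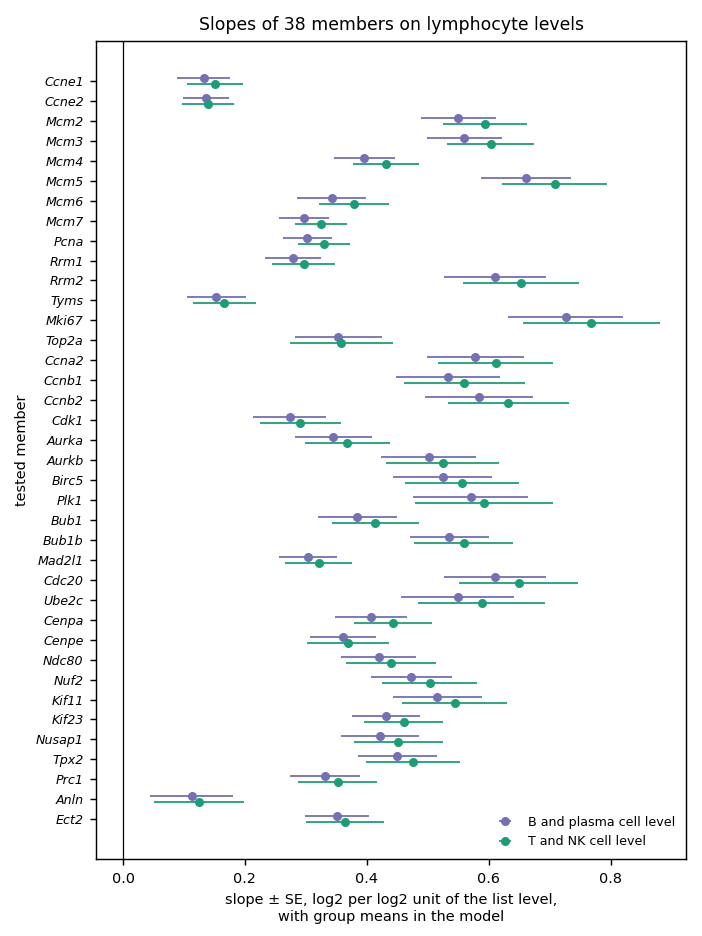
Points are the slopes of the 38 tested members on the B and plasma cell level and on the T and NK cell level, with SE, from limma with group means in the model. Mki67 is farthest to the right, at 0.73 and 0.77, and Anln is nearest to 0.

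The share of positive slopes among all called genes depended on the scaling. On the B and plasma cell level it was 80.3%, against 46.2% after quantile normalization and 61.1% after scaling in the manner of TMM, and on the T and NK cell level it was 79.8%, 46.0% and 59.6%. Under these scalings between 34 and 35 of the 38 members still passed with a positive slope. Since 5 libraries lay apart in lymphocyte genes, the slopes were also fitted in the other 15. There 32 of 38 members passed on the B and plasma cell level, against 8.16% of all genes, and their median slope was 0.80. On the T and NK cell level 8 of 38 members passed in those 15 libraries, against 10.7% of all genes, and all 38 slopes were positive, with a median of 0.51, against 0.05 over all genes.

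Within those 15 libraries Mki67 and the B and plasma cell level were correlated, with Pearson's r = 0.905 and Spearman's rho = 0.907 (permutation test, 6 relations, adjusted p = 6e-05 and 0.00012). Without the 2 libraries farthest from the median level r was 0.869, and with group means removed it was 0.903. With the T and NK cell level r was 0.757 and rho 0.814 (permutation test, adjusted p = 0.00196 and 0.00093), and without the 2 farthest libraries r was 0.762. Mki67 also followed the mean level of 15 macrophage and monocyte genes, with r = 0.738 and rho = 0.779 (permutation test, adjusted p = 0.00196 and 0.00137), and r was 0.668 without the 2 farthest libraries. With group means removed r was 0.666 for the T and NK cell level and 0.61 for the macrophage level. The permutations of all 6 relations ignored the groups, so their p-values do not separate the relations from differences between groups. No p was computed with group means removed. Of the 6 relations, those with the macrophage and germinal centre lists and those of Anln were added after seeing the data. The B and plasma cell, T and NK cell and macrophage lists were all lowest in the same 5 libraries. The germinal centre list overlapped, at 1.56 to 1.83 in those 5 libraries and 1.68 to 3.11 in the other 15. The parts of all these lists in the relations cannot be told apart. In the 5 libraries poor in lymphocyte genes Mki67 lay between 0.290 and 0.659 FPKM. Of the other 15, wild type saline replicate 5, at 0.472 FPKM, lay in that range too. The summed FPKM of the B and plasma cell list lay between 16.6 and 96.4 in the 5 libraries, against 518 to 6427 in the other 15. In at least 1 of these 5 libraries the B cell factor Spib and the T cell genes Cd8a and Zap70 were listed at 0.

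**Figure D5:**
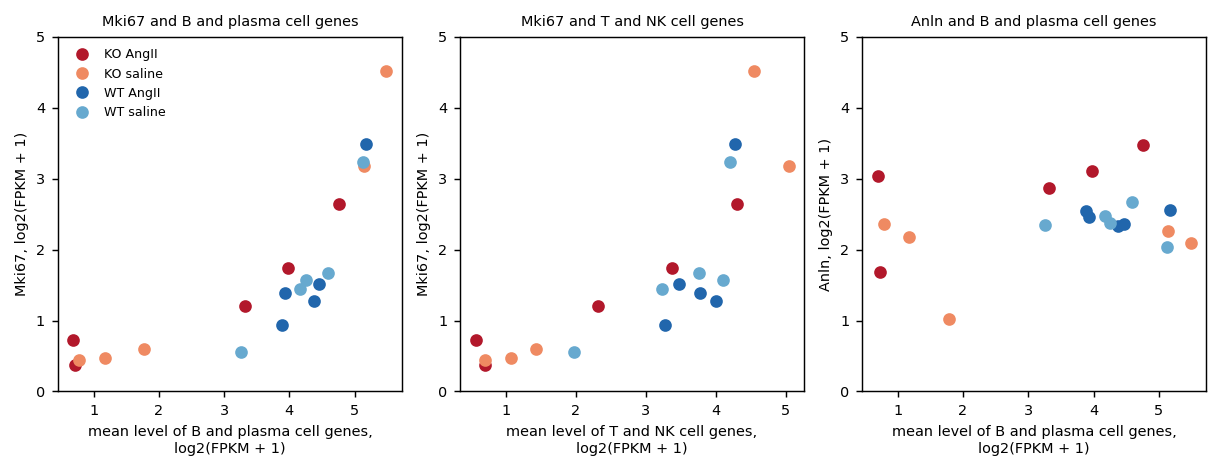
Each point is 1 of 20 libraries, with log2(FPKM + 1) of Mki67 (left and middle panels) or Anln (right panel) against the mean level of B and plasma cell genes (left and right) or T and NK cell genes (middle). Mki67 is below 1 in the 5 libraries at the left and also in wild type saline replicate 5 and wild type AngII replicate 1. It climbs to 4.52 in knockout saline replicate 1, and Anln shows no such climb.

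Several genes of germinal centre B cells stood highest in the libraries with the most Mki67. The 3 libraries with the most Mki67 were knockout saline replicate 1, wild type AngII replicate 5 and wild type saline replicate 4. Rgs13 (a regulator of G protein signals in germinal centre B cells), Gcsam, S1pr2 and Mybl1 had their 3 highest values in these 3 libraries. Bcl6, Fas and Gcnt2 of the same list of 8 did not follow. Fas at 9.33 FPKM and Gcnt2 at 4.33 FPKM were lowest of all 20 libraries in knockout saline replicate 1, and Bcl6 had its maximum of 25.6 FPKM in knockout saline replicate 4. In the 15 libraries the mean level of the 8 genes correlated with Mki67 at r = 0.918 and rho = 0.807 (permutation test, adjusted p = 6e-05 and 0.00093). Without the 2 farthest libraries r was 0.843. This relation was added after seeing the data, so its p-values test no prior question. The recombination gene Rag1, a marker of developing lymphocytes, did not exceed 0.442 FPKM, and Dntt did not exceed 1.79 FPKM. In knockout saline replicate 1 the mean levels of 12 smooth muscle genes and 10 fibroblast genes were 5.67 and 4.49, the lowest of the 20 libraries. Whether the dividing cells were lymphocytes, and whether these lay in the vessel wall or in tissue beside it, was not tested.

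Anln stood apart from the other members. It lies on chromosome 9 from 22332012 to 22389188 on the minus strand, and its product binds actin, myosin and septins in the contractile ring and is also known at cell junctions. Anln had 2.20, 7.23, 7.65, 10.1 and 6.27 FPKM in knockout AngII aortas and 3.25, 3.54, 3.82, 1.04 and 4.16 FPKM in knockout saline aortas. It had 4.81, 4.05, 4.16, 4.48 and 4.89 FPKM in wild type AngII aortas and 5.38, 4.56, 4.19, 3.10 and 4.11 FPKM in wild type saline aortas. Of the knockout AngII libraries 4 lay above every library of the other groups, and replicate 1 was the second lowest of all 20. Over the 20 libraries its r with the other tested members ran from -0.02 to 0.33.

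In knockout aortas Anln averaged 6.69 ± 2.89 FPKM under AngII and 3.16 ± 1.23 FPKM under saline (SD, n = 5), a log2 difference of 0.85 ± 0.28 (SE), and did not pass across all genes (limma adjusted p = 0.99). In wild type aortas it averaged 4.48 ± 0.375 FPKM under AngII and 4.27 ± 0.825 FPKM under saline, a log2 difference of 0.07 ± 0.28 (limma adjusted p = 1). The difference between these responses was 0.78 ± 0.40 (limma adjusted p = 0.995). Knockout against wild type gave 0.38 ± 0.28 under AngII and -0.40 ± 0.28 under saline (limma adjusted p = 0.504 and 0.818). The transcript Anln-201 carried 86.0% of the gene's FPKM, and averaged 5.67 ± 2.48 FPKM in knockout AngII, 2.75 ± 1.22 FPKM in knockout saline, 3.90 ± 0.536 FPKM in wild type AngII and 3.67 ± 0.875 FPKM in wild type saline aortas (SD, n = 5). The shorter Anln-202, with 11.2%, showed the same order of knockout groups, at 0.887 ± 0.535 FPKM under AngII and 0.276 ± 0.246 FPKM under saline.

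The tested genes most alike to Anln over the 20 libraries were Itga5 (r = 0.832), the fibronectin receptor subunit, S100a4 (0.787), a calcium-binding protein of motile cells, Filip1l (0.775), Htr1b (0.748), Myo1c (0.743), Shroom3 (0.740), Slc38a2 (0.730), Ddhd1 (0.729), Ccn2 (0.727), a matricellular growth factor, and Itga9 (0.716). They were picked for this likeness, so the values are a description. With the mean level of 10 matrix genes Anln had r = 0.659 and rho = 0.758 over 20 libraries (permutation test, adjusted p = 0.00196 and 0.00054). Without the 2 farthest libraries r was 0.664, and with group means removed it was 0.499, for which no p was computed. This list holds Ccn2 and was chosen with earlier results of these data known, and the permutations ignored the groups. These p-values therefore test no prior question and do not separate the relation from differences between groups. With the B and plasma cell level in the 15 libraries Anln had r = -0.279 and rho = -0.314 (permutation test, adjusted p = 0.319 and 0.253). With group means removed that r was 0.192, of the other sign, and no p was computed for it. All 10 matrix genes were higher under AngII than under saline in both genotypes, with medians of 1.18 in knockout and 0.86 in wild type aortas, and 0 of them passed limma's test. Postn, periostin, averaged 243 ± 77.4 FPKM in knockout AngII and 82.2 ± 30.9 FPKM in knockout saline aortas (SD, n = 5), a log2 difference of 1.58 ± 0.28 (limma adjusted p = 0.374). Lox, which crosslinks collagen, averaged 52.9 ± 18.4 FPKM and 20.7 ± 8.13 FPKM in those groups, with 1.33 ± 0.29 (limma adjusted p = 0.599). In wild type aortas Fn1, fibronectin, averaged 177 ± 60.9 FPKM under AngII and 86.7 ± 26.3 FPKM under saline, and Timp1, a protease inhibitor, 17.5 ± 13.5 FPKM and 5.19 ± 0.761 FPKM, with log2 differences of 1.03 ± 0.31 and 1.33 ± 0.46 (limma adjusted p = 1 for both).

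Of the 17 tested partners of Anln in the contractile ring, 9 were higher and 8 lower under AngII in knockout aortas, and 0 passed. Myh10, a nonmuscle myosin of the ring, averaged 18.2 ± 22.0 FPKM in knockout AngII and 5.18 ± 3.78 FPKM in knockout saline aortas (SD, n = 5), a log2 difference of 1.31 ± 0.59 (limma adjusted p = 0.99). In wild type aortas it averaged 8.90 ± 7.29 FPKM under AngII and 19.5 ± 8.29 FPKM under saline, with -1.28 ± 0.59 (limma adjusted p = 1). The interaction of Myh10 had a limma p of 0.00602 and an adjusted p of 0.995. Sept2, a septin, differed by 1.00 ± 0.57 between AngII and saline in knockout aortas, and Rock2, the kinase that drives myosin, by -1.55 ± 0.85 in wild type aortas, where it averaged 0.379 ± 0.208 FPKM under AngII and 7.12 ± 9.15 FPKM under saline (limma adjusted p = 0.99 and 1). None of these differences passed, and the SDs of Myh10 in knockout AngII and Rock2 in wild type saline aortas exceeded their means.

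Upstream regulators of G1 were counted in the same comparisons. The list held cyclins D, kinase inhibitors and E2F and Rb factors, and also Myc. Of its 28 tested genes, 23 were lower and 5 higher under AngII in knockout aortas (median -0.15). In wild type aortas 15 were higher and 13 lower (median 0.01), and 0 passed in either genotype. Cdkn2d, an inhibitor of the D-cyclin kinases, averaged 11.7 ± 2.37 FPKM in knockout AngII and 17.0 ± 4.62 FPKM in knockout saline aortas, and Cdkn1c, another inhibitor, 3.57 ± 1.99 FPKM and 10.3 ± 5.04 FPKM, with log2 differences of -0.49 ± 0.19 and -1.25 ± 0.53 (limma adjusted p = 0.99 for both). In wild type aortas Rbl2, an Rb relative, and Cdkn2b, a kinase inhibitor, differed by -0.24 ± 0.15 and 0.30 ± 0.19 (limma adjusted p = 1 for both). Knockout against wild type under AngII gave 1 call among the 28, against 1.83% of all genes, and this was Rb1, the retinoblastoma protein that holds E2F factors inactive. Rb1 had 13.5, 12.9, 14.4, 12.1 and 11.3 FPKM in knockout AngII aortas and 8.95, 8.29, 9.97, 8.38 and 10.9 FPKM in wild type AngII aortas, without overlap. Its log2 difference was 0.43 ± 0.10 (limma adjusted p = 0.039). The call was lost without the filter on low values (adjusted p = 0.0551), with the replicate number as a block (adjusted p = 0.0697) and in 9 of 20 fits that left out 1 library, where the adjusted p ran up to 0.128. Under saline Rb1 averaged 11.4 ± 0.983 FPKM in knockout and 9.83 ± 1.05 FPKM in wild type aortas.

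Other genes of replication and mitosis followed the members. Of 21 other replication genes tested, such as those of the origin recognition complex and the GINS complex, 20 were lower under AngII in knockout aortas, against 61.3% of all genes, and 14 higher in wild type aortas, against 53.6%. Of these 21, 19 had a positive slope on the B and plasma cell level that passed, against 29.3% of all genes. Of 25 other mitosis genes, 24 were lower and 21 higher in those comparisons, and 23 had such a slope. None of either list passed between groups. Those with the smallest p in knockout aortas were Prim1, the primase, at 2.61 ± 0.788 FPKM under AngII and 4.39 ± 2.43 FPKM under saline, Gins1 at 2.29 ± 0.449 and 3.34 ± 1.44 FPKM, Stmn1, a microtubule destabiliser, at 42.7 ± 30.3 and 56.0 ± 22.1 FPKM, and the motor Kif2c at 0.430 ± 0.489 and 1.41 ± 1.90 FPKM (SD, n = 5, limma adjusted p = 0.99 for each). In wild type aortas they were Orc6 at 7.73 ± 1.45 FPKM under AngII and 6.23 ± 0.838 FPKM under saline, Cdc45 at 1.66 ± 1.60 and 1.04 ± 1.41 FPKM, Cks1b at 12.2 ± 4.40 and 9.10 ± 3.75 FPKM, and Pttg1 (securin) at 29.3 ± 8.24 and 32.4 ± 6.62 FPKM (limma adjusted p = 1 for each). Outside the members, the genes most alike to their mean level without Anln were Pclaf (r = 0.993), a Pcna-binding protein, Kifc1 (0.988), Lmnb1 (0.987), Spag5 (0.987), Ccnf (0.986), Cdca5, Cdca7 and Cdca8 (each 0.985), Ncaph (0.980) and Cdca3 (0.980), over 20 libraries and picked for this likeness.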

How the data were processed

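Tables and plots were made in Python 3.11.15 with pandas 2.3.3, numpy 2.4.6, scipy 1.17.1 and matplotlib 3.10.9. The authors deposited 1 table of transcript values per library, read here as FPKM from the values themselves. Multiplied by transcript length and divided by the step of 1 read, fitted on low values, those standing for few reads were checked. Of these, 99.44% to 99.62% gave whole reads (within 0.1 read). Values standing for more reads were not part of this check. Per the submitters' processing notes the build was mm10 and limma was used, without a version. The aligner and counter were not given in the sources used here. FPKM of Ensembl transcripts was summed per gene with GENCODE M21, where 109913 of 110082 matched and 16637 unannotated models were left out.

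Genes that reached 1 FPKM in 5 or more libraries (14998, among them 38 members) were tested with limma 3.58.1 (trend and robust) in R 4.3.3 on log2(FPKM + 1), which understates changes of low genes. All 20 libraries shared 1 fit with a mean per group. Genes were called at a two-sided Benjamini-Hochberg adjusted p under 0.05. The fit was checked on simulated data with independent noise for each gene. For AngII in knockout it recovered 54% of log2 changes of 1 and 86% of changes of 2, and 4.11% of calls were false. On the B and plasma cell level it recovered 89% of slopes of 0.5, with 4.3% of calls false. A lack of calls therefore does not show that a gene was unchanged. List levels are means of log2(FPKM + 1). Cell type lists were compared with exact permutation tests over 252 arrangements (44 tests), and relations with 100000 permutations. The members and the lists were chosen with earlier results of these data known. Genes were named by rule, namely Mki67, Top2a and Anln, any member called, the most abundant member of each role, the 2 members with the smallest p per comparison, called genes of the pathway lists and the 2 with the smallest p per such list and AngII comparison, and the 10 genes most alike. Group means or spans of further members were chosen after their values were seen. Alternatives were a pseudocount of 0.1, no filter, scaling in the manner of TMM, quantile normalization, a replicate block, lymphocyte covariates, limma-voom on the whole reads, and leaving out each library. Fits without knockout saline replicates 1 and 3, and slopes without the 5 libraries poor in lymphocyte genes, were added after seeing the data. 1 gene of the germinal centre list is not reported here.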

Additional observations from a re-analysis of the deposited data

Results flagged for a closer look

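In a group of 5 libraries, a highest or lowest value was singled out when its gap to the nearest other value exceeded 0.71 of the group's range (Dixon's critical value), which chance alone does in about 1 of 20 groups. Of 64 groups of values checked, 9 were singled out, all on the log2(FPKM + 1) scale. Wild type AngII replicate 5 was high for 7 of them, with Mki67 at 3.48, Top2a at 2.78, Ccna2 at 3.38, Birc5 at 3.33, Prc1 at 2.57, the mean level of the members without Anln at 3.03 and that of the germinal centre list at 3.07. Those 7 come from 1 library and are not independent of each other. In the other 4 wild type AngII libraries Mki67 lay between 0.93 and 1.52. Knockout saline replicate 4 was low for Anln, at 1.03, against 2.09 to 2.37 in the other 4. Wild type saline replicate 5 was low for Ccne1, at 1.20, against 1.76 to 1.99 in the other 4. Knockout saline replicate 1 held the highest value of the series for 37 of the 40 members, but was not singled out in its group for any value checked.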

How the results depend on the processing

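Of 1084 values under an alternative, 1002 kept their call, 53 moved, 18 reversed and 11 lost a call. A median counted as kept when it moved by less than 0.73, the SD of the members' level between libraries of a group, so these 1002 include medians that changed sign, such as 0.199 for genotype under AngII with lymphocyte covariates. No alternative gave a member a call between groups. Without knockout saline replicates 1 and 3, the members' median was 0.446 for AngII in knockout, -0.837 for genotype under saline and 0.382 for the interaction, and Mki67 stood at 0.831, -1.19 and 0.808. Without those 2 libraries 49 genes were called between genotypes under saline and 790 under AngII, and 2467 and 2974 on the B and T cell slopes. Mki67 also changed sign with lymphocyte covariates, at -0.043 for AngII in wild type and 0.831 for genotype under AngII, and for genotype under saline with limma-voom (-0.237) and with a pseudocount of 0.1 (-0.151). Genes called between genotypes under AngII numbered 275, against 165 with limma-voom, 481 with covariates and 70 with the replicate block. Under saline they numbered 2, against 1 with limma-voom, 1 with quantile normalization, 1 with the replicate block, 4 with covariates and 20 with no filter, where AngII in wild type gave 11 and the interaction 1. On the B and T cell slopes, with 4413 and 4700 genes rising with the level, 2847 and 2975 genes passed with quantile normalization, and 1224 and 1598 without the 5 libraries poor in lymphocyte genes, where 8 members passed on the T cell slope. The call of Rb1, at 0.428, was lost with no filter and with the block. The median for genotype under saline was 0.07 after quantile normalization, -0.28 with limma-voom and -0.245 with a pseudocount of 0.1, and that for genotype under AngII -0.90 and -0.84 with limma-voom and that pseudocount.

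Leaving out 1 library at a time, genes called ran from 0 to 4 for AngII in knockout, 0 to 1 for AngII in wild type, 1 to 4 for genotype under saline and 9 to 483 for genotype under AngII. The members' median ran from -0.599 to 0.068, -0.122 to 0.339, -0.446 to 0.223 and -0.718 to -0.232 in these comparisons, and from -0.724 to -0.061 for the interaction. Mki67 ran from -0.855 to 0.162, -0.418 to 0.408, -0.521 to 0.533, -0.709 to 0.059 and -0.915 to 0.139. Anln for AngII in wild type ran from -0.019 to 0.141, and Rb1 from 0.388 to 0.482. The cause of these changes was not tested. Same-numbered replicates did not deviate together in a steady way (r from -0.524 to 0.395, over 0.1 in 7 of 20 pairs). This check showed no pairing by number but cannot exclude one, since libraries of a group also differed in lymphocyte genes. With the block the members' calls stayed at 0. Kif20a had a median of 5.5 reads, with 0 to 137 reads over the libraries.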
